A study of Mus musculus with 10 samples.

Results

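The genes described here encode surface molecules by which a macrophage costimulates or restrains T cells or shows that it has been activated. They are the costimulatory ligands *Cd80*, *Cd86* and *Icosl*, the inhibitory ligand *Cd274* (PD-L1), the receptor *Cd40*, the activation antigens *Cd69*, *Cd83* and *Slamf7*, and the adhesion and membrane glycoproteins *Cd44* and *Cd52*. They were chosen by name, by matching Ensembl identifiers to mouse symbols, and are 10 of the 43432 genes counted. All 10 passed the filter on low counts, as did 14172 genes in all.

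RNA was sequenced from the mouse macrophage line RAW264.7, which was transformed by Abelson leukemia virus, under 5 conditions with 2 libraries each. Cells received solvent (0.5% DMSO) alone (DMSO), solvent with lipopolysaccharide (LPS, the bacterial cell wall component that activates Toll-like receptor 4) at 1 µg/mL (DMSO + LPS), or **1** at 32, 10 or 3.2 µM with the same LPS. **1** is the E isomer of 9-keto-hexadec-7-enoic acid, a fatty acid found in a cyanobacterial mat, and the comparisons ask how it alters the LPS response. Solvent or **1** was given 1 h before LPS, RNA was collected after 12 h, and no library had **1** without LPS. The model is 1 transformed cell line in culture. The labels number the 2 libraries of a condition as biological replicates, but do not say whether these were separate experiments, so p-values measure only the spread between these libraries.

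Library totals lay between 45966803 and 58976377 counts. Levels are given as CPM, counts scaled to a common library total after TMM scaling, which sets most genes equal between libraries. All 10 macrophage markers examined, among them *Adgre1*, *Csf1r* and *Cd68*, were detected in every library, with a summed level from 8122 to 11995 CPM. This sum was 10439 and 10557 CPM in DMSO + LPS and 8512 and 8122 CPM at 32 µM. Most of that gap was in *Lyz2* (means of 4127 and 2707 CPM) and *Cd14* (3311 and 2549 CPM). At 32 µM *Itgam*, *Fcgr1* and *Lyz2* were called lower (adjusted p below 0.05 in edgeR and at least a 1.5-fold change) and none of the 10 higher. Over all genes tested, 2.91% were called lower and 1.27% higher. Under the fold cutoff on the log2 scale, *Adgre1* (-0.31, adjusted p = 0.00423, edgeR) and *Cd14* (-0.38, adjusted p = 4.18e-04) stood lower than in DMSO + LPS. *Csf1r* stood higher (0.40, adjusted p = 0.00118, edgeR). The differences of *Cd68*, *Ptprc*, *Spi1* and *Mertk* were 0.10, 0.04, -0.12 and -0.15. Of 8 T cell markers, 5 to 7 were at 0 in each library, and *Lck* held nearly all of the counts. B cell markers (6 genes) summed to 14 to 173 counts. Dendritic cell markers (7 genes) summed to 5.23 to 5.49 CPM in DMSO and 65.7 to 72.0 CPM in the 8 libraries with LPS, through *Itgax* and *Xcr1*. The first library at 10 µM and the first at 3.2 µM stood apart. Their 4 epithelial markers (*Epcam*, *Krt8*, *Krt18*, *Cdh1*) summed to 1777 and 268 counts against 0 to 5 in the others, and 5 fibroblast markers to 366 and 61 counts against 4 to 14. Among the macrophage markers only *Fcgr1* was called at 10 µM (lower, -0.68, adjusted p = 0.00875, edgeR, background 0.579%). EdgeR did not call it without the libraries with epithelial counts. The values of the 10 genes and the calls and list counts at 10 and 3.2 µM against DMSO + LPS are also given without these libraries. The part of other cells' RNA, or of the lower macrophage marker sum at 32 µM, in the results was not tested. In bulk RNA, fewer cells with a transcript and less of it per cell cannot be told apart.

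As background, a T cell needs a second signal beside antigen, and CD80 and CD86 on the presenting cell give it through CD28, or restrain the cell through CTLA-4. ICOS ligand sustains T cell help through ICOS, whereas PD-L1 dampens T cells through PD-1. CD40 runs the other way, taking CD40 ligand from the T cell and signaling into the macrophage through TRAF adaptors to NF-κB. LPS is known to raise most of these molecules on macrophages, through NF-κB and through interferon β made in response.

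Promoter sequence was held for 5 of the genes (*Cd80*, *Cd274*, *Icosl*, *Cd44* and *Slamf7*) in the RefSeq table for GRCm38.p6. The 250 bases before each start were searched on both strands for 6 motifs. The motifs were AP-1 (TGANTCA), PU.1 (GAGGAAG), κB, STAT (TTC, any 3 bases, GAA), interferon response (GAAA, any 2 bases, GAAA) and antioxidant response (TGAC, any 3 bases, GC). *Cd80* and *Slamf7* each held 1 AP-1 match, at the same place, 42 to 36 bases before the start, and these windows are shown because the genes share this match while their responses to **1** lie far apart. The *Cd80* window is chr16:38458683-38458932 on the plus strand and the *Slamf7* window chr1:171649000-171649249 on the minus strand, each 5′ to 3′ with the AP-1 match in capitals. Both RefSeq starts lie inside the longer GENCODE gene span.
Cd80: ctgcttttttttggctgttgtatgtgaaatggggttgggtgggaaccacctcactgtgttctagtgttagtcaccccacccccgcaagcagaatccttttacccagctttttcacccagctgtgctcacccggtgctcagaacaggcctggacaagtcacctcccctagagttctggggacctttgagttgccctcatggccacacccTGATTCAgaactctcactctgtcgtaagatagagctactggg
Slamf7: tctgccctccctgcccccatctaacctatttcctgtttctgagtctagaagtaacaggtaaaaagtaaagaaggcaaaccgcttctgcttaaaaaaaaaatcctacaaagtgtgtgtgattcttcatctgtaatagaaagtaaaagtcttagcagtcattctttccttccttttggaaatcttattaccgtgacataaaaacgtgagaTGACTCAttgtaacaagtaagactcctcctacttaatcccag
An AP-1 match stood in 6.75% of the 32851 promoter windows of the same length. *Cd44* held a PU.1 match 221 to 215 bases before its start (10.6% of windows), and *Icosl* a κB match 111 to 102 bases before its start (7.25% of windows). *Cd274* held none of the 6. A match describes letters and not a bound site. The shares for the others were 2.98% (interferon response), 7.02% (STAT) and 10.2% (antioxidant response).

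LPS alone raised all 10 genes. In DMSO + LPS against DMSO, 10 of 10 were called higher, against a background of 14.6% of the genes tested (a gene was called at an adjusted p below 0.05 in edgeR's quasi-likelihood test and at least a 1.5-fold change). Their median log2 fold change was 2.30, against 0.00 over all genes tested. The rises ran from 2.62-fold for *Cd44* to 156-fold for *Cd40* (95% interval 125 to 194). The intervals of *Slamf7* (39.7 to 270) and *Cd69* (56.3 to 184), which had few counts in DMSO, overlap that of *Cd40*. At 32 µM of **1**, 6 of the 10 were called lower than in DMSO + LPS (*Cd86*, *Cd40*, *Cd69*, *Cd83*, *Cd52* and *Slamf7*), against a background of 2.91%, and the median log2 fold change of the 10 was -1.20 against 0.01 over all genes tested. *Cd274* was not among them and its mean was 104% of that in DMSO + LPS. At 10 µM, 2 were called lower (*Cd86* and *Cd83*), with a background of 0.579%, and at 3.2 µM none was called by edgeR or DESeq2 (2 had an unadjusted p below 0.05), with a background of 0%. Genes called either way by edgeR, the background for lists below with no call, were 28.2% with LPS. They were 4.18%, 0.861% and 0% at 32, 10 and 3.2 µM.

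**Figure D1:**
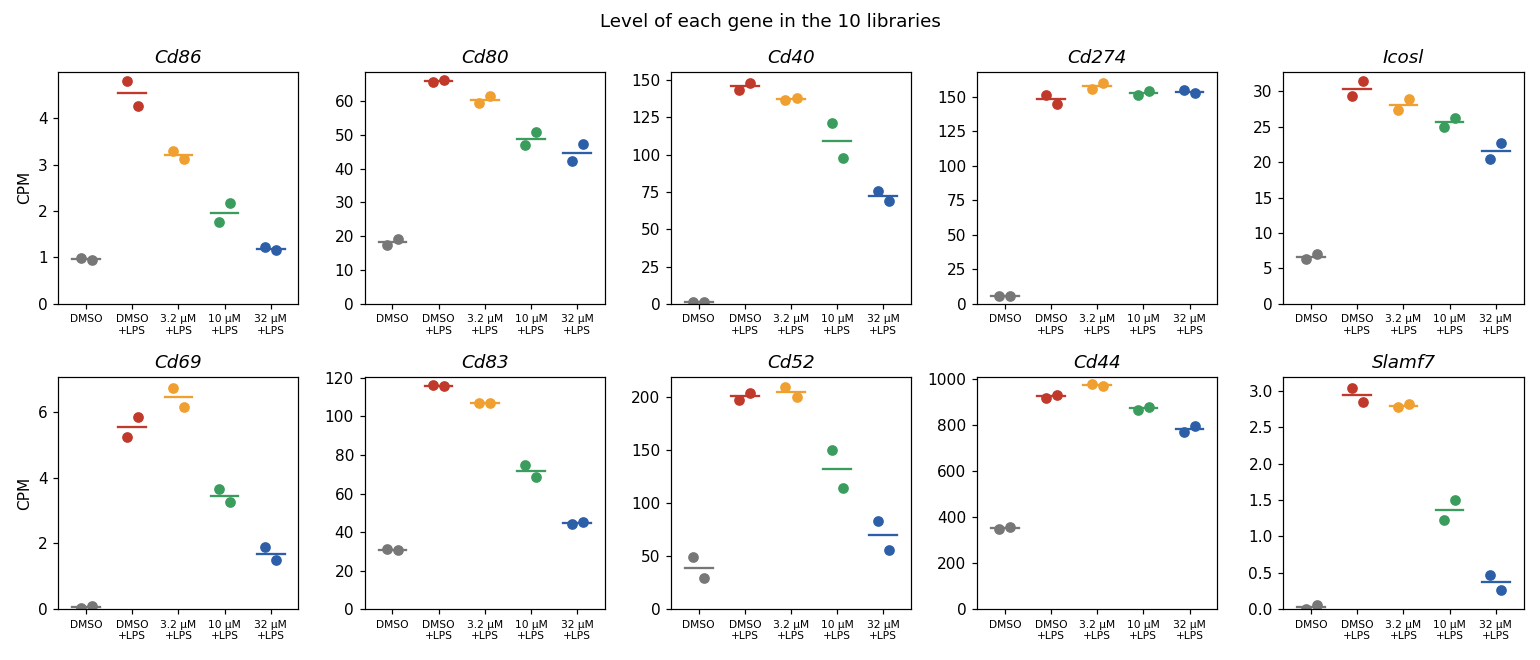
Level of each gene (CPM, y axis from 0) in the 10 libraries by condition (x axis); points are libraries and bars the mean of 2. *Cd86*, *Cd40*, *Icosl*, *Cd83* and *Slamf7* stand lower at each higher dose without overlap, whereas *Cd274* keeps to 145 to 160 CPM in all 8 libraries with LPS.

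*Cd86* (chr16:36603869-36666081, minus strand, ENSMUSG00000022901) lost nearly all of its LPS rise. Gene positions here and below are those of GENCODE M21 on GRCm38. Its 2 libraries without LPS held 0.986 and 0.934 CPM and the DMSO + LPS libraries 4.80 and 4.26 CPM. With **1**, the 3.2 µM libraries held 3.30 and 3.11, the 10 µM libraries 1.76 and 2.17 and the 32 µM libraries 1.23 and 1.15 CPM. Each step down in this order was without overlap, and the 32 µM libraries stood just above those without LPS. The rise with LPS was 4.71-fold (95% interval 3.65 to 6.08, adjusted p = 9.33e-06, edgeR). With **1** it stood at a log2 fold change against DMSO + LPS of -1.93 ± 0.16 (SE) for 32 µM (adjusted p = 1.64e-04) and -1.20 ± 0.15 for 10 µM (adjusted p = 0.00671). At 3.2 µM it was -0.50 (95% interval -0.84 to -0.16), with an unadjusted p of 0.0102 and an adjusted p of 0.927 in edgeR. Between 32 µM and DMSO the difference was 0.31 on the log2 scale (95% interval -0.07 to 0.68, adjusted p = 0.175), which was not called. The counts behind these levels were low, from 52 to 275 in a library. The 10 µM call was lost in edgeR on the 4 libraries compared and without the first DMSO + LPS library. It was also lost without the libraries with epithelial counts (log2 fold change -1.06). Over its 14 alternatives the adjusted p ran from 3.51e-05 to 0.114.

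*Cd80* (chr16:38455561-38496335, plus strand, ENSMUSG00000075122), the other CD28 ligand, kept more of its rise. Solvent alone gave 17.5 and 19.3 CPM and LPS gave 65.5 and 66.2 CPM. Adding **1** gave 59.4 and 61.4 CPM (3.2 µM), 47.0 and 50.8 CPM (10 µM) and 42.2 and 47.2 CPM (32 µM). Every library with LPS stood above both without it, and those at 10 and 32 µM overlapped. LPS raised it 3.59-fold (95% interval 3.17 to 4.06, adjusted p = 4.35e-07). Compared with DMSO + LPS, 32 µM gave a log2 fold change of -0.56 (95% interval -0.73 to -0.39), with an adjusted p of 0.00228 in edgeR, and 10 µM gave -0.43 (-0.60 to -0.26), with 0.0245. Both lay under the 1.5-fold cutoff. Without the second 32 µM library the 32 µM value was -0.64 and passed it (adjusted p = 0.00567, over its alternatives 1.07e-08 to 0.0268).

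The balance between the transcripts of these ligands, not between their proteins, is given by ratios of CPM within a library. The change of such a ratio between conditions does not depend on gene length. *Cd80* to *Cd86* was 17.7 and 20.6 without LPS and 13.6 and 15.6 with it, and then 18.0 and 19.7 (3.2 µM), 26.7 and 23.4 (10 µM) and 34.5 and 41.1 (32 µM). The 4 conditions with LPS did not overlap, and the ratio was higher at each higher dose. *Cd274* to *Cd86* was 5.66 and 5.79 without LPS, 31.5 and 34.0 with LPS, and 126 and 133 with 32 µM added. *Cd274* to *Cd80* went from 0.319 and 0.281 through 2.31 and 2.19 to 3.67 and 3.23 in the same conditions. With 2 libraries against 2, an exact two-sided permutation test of a ratio cannot go below p = 0.333. The ratios are given as values and were not tested.

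*Cd274* (chr19:29367455-29388095, plus strand, ENSMUSG00000016496), the PD-L1 gene, rose with LPS and was not called at any dose of **1**. Its 2 libraries without LPS held 5.58 and 5.41 CPM and the DMSO + LPS libraries 151 and 145 CPM. With **1**, the 3.2 µM libraries held 155 and 160, the 10 µM libraries 151 and 154 and the 32 µM libraries 155 and 153 CPM. The LPS rise was 27.0-fold (95% interval 24.8 to 29.3, adjusted p = 7.95e-10, edgeR). At 32 µM the fold against DMSO + LPS was 1.04, with a 95% interval of 0.968 to 1.11 (adjusted p = 0.567). At 10 µM it was 1.03 (0.963 to 1.11) and at 3.2 µM 1.07 (0.994 to 1.14). The log2 fold change at 32 µM lay between 0.02 and 0.09 over 15 alternatives. Of its exonic bases, 14.1% overlap an antisense gene (AC119228.1). The kit marks strand, but its use in counting is not given in the sources used here.

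*Icosl* (chr10:78069302-78083913, plus strand, ENSMUSG00000000732), the ligand of ICOS, stood a little lower at each dose. Solvent alone gave 6.34 and 7.01 CPM and LPS gave 29.3 and 31.5 CPM. Adding **1** gave 27.3 and 28.9 CPM (3.2 µM), 25.0 and 26.3 CPM (10 µM) and 20.5 and 22.7 CPM (32 µM). No neighboring pair of these conditions overlapped. LPS raised it 4.55-fold (95% interval 3.97 to 5.21, adjusted p = 2.90e-07). The log2 fold change for 32 µM was -0.49 (95% interval -0.68 to -0.31, adjusted p = 0.00592, edgeR), under the fold cutoff.

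Of 4 other members of the B7 family (*Pdcd1lg2*, *Cd276*, *Vtcn1*, *Vsir*), 2 could be tested. *Cd276* (B7-H3) was called lower with LPS (log2 fold change -1.62), going from 53.6 ± 0.305 to 17.4 ± 0.319 CPM (SD, n = 2). It was called higher at 32 µM against DMSO + LPS (0.72, at 28.7 ± 0.992 CPM). Over all genes tested, 13.6% were called lower with LPS and 1.27% higher at 32 µM. *Vsir* (VISTA) had a log2 fold change of -0.55 at 32 µM (adjusted p = 4.59e-04, edgeR), under the fold cutoff. The second PD-1 ligand, *Pdcd1lg2*, had 0 to 6 counts in every library and *Vtcn1* 0 to 4. As for the receptors on the T cell side, *Cd28* was called lower with LPS, going from 615 and 684 counts to 33 and 26 (log2 fold change -4.31, adjusted p = 2.13e-06, edgeR). *Icos* went from 52 and 61 to 8 and 5 counts (-2.96), and *Cd40lg* was at 0 counts in all 10 libraries. None of the 3 receptors tested was called at any dose by edgeR or DESeq2 (2 at 32 µM and 0 at the lower doses had an unadjusted p below 0.05, and 0 at the lower doses without the libraries with epithelial counts).

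*Cd40* (chr2:165055627-165072948, plus strand, ENSMUSG00000017652), the receptor for T cell help, was below 1 CPM without LPS and lost about as much as it kept of its rise with 32 µM of **1**. Its 2 libraries without LPS held 0.952 and 0.916 CPM and the DMSO + LPS libraries 144 and 148 CPM. With **1**, the 3.2 µM libraries held 137 and 138, the 10 µM libraries 121 and 97.7 and the 32 µM libraries 75.6 and 69.0 CPM. Each condition with LPS stood below the one before it, with the widest gap between libraries at 10 µM. The LPS rise was 156-fold (95% interval 125 to 194, adjusted p = 7.29e-09, edgeR). With 32 µM the mean level was 49.5% of the LPS level (log2 fold change -1.01 ± 0.09, SE, adjusted p = 3.41e-04). It was still 77.2-fold above DMSO (95% interval 62.2 to 95.7). For 10 µM the log2 fold change was -0.42 (95% interval -0.63 to -0.20), which was not called (adjusted p = 0.0728), and without the libraries with epithelial counts -0.58 (adjusted p = 0.0535, over its alternatives 1.32e-05 to 0.395).

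Of 10 genes that carry the CD40 signal, 6 were called higher with LPS and none lower by edgeR (backgrounds 14.6% and 13.6%), with a median log2 fold change of 1.08. *Traf1*, an adaptor of TNF receptors, rose most (5.80), followed by *Nfkb2* (1.95), the ubiquitin ligase *Birc3* (1.85) and *Relb* (1.75). *Nfkb2* and *Relb* encode subunits of noncanonical NF-κB. At 32 µM none of the 10 was called by edgeR or by DESeq2, and edgeR called 4.18% of all genes tested either way. Of the 10, 3 had an unadjusted p below 0.05 (edgeR), and the median log2 fold change was 0.03. *Traf1* had a log2 fold change of -0.39 ± 0.06 (SE), with an adjusted p of 0.00423 in edgeR, under the fold cutoff. At 10 µM none was called by either tool (2 had an unadjusted p below 0.05), nor at 3.2 µM (1), nor without the libraries with epithelial counts (1 and 0).

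**Figure D2:**
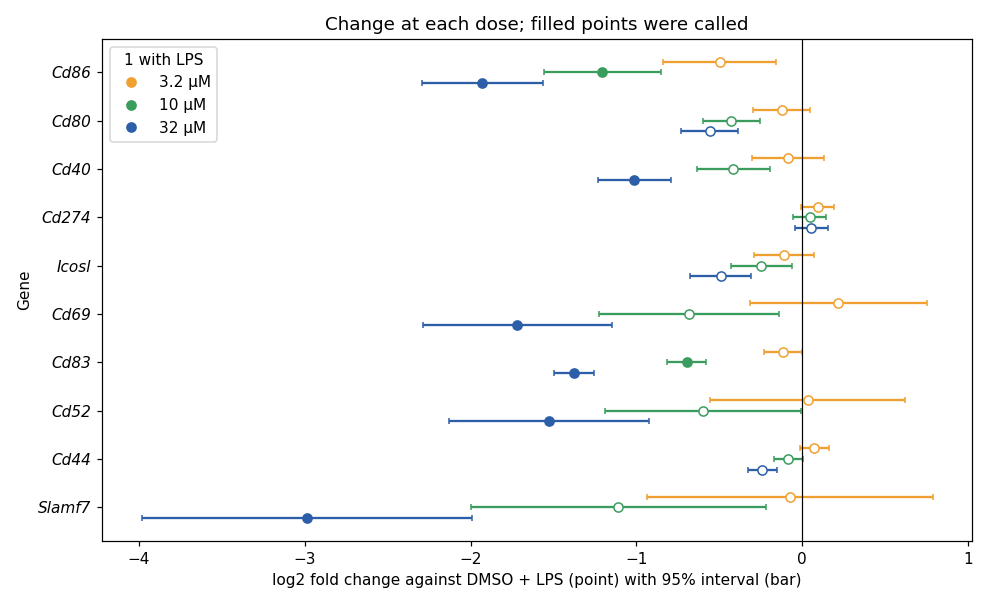
Log2 fold change of each gene against DMSO + LPS (x axis) at 3.2, 10 and 32 µM of **1** with LPS; points are edgeR estimates from 2 libraries against 2 and bars their 95% intervals, and filled points were called. Filled points are 6 genes at 32 µM and *Cd86* and *Cd83* at 10 µM, and the 3 intervals of *Cd274* span 0.

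Among the activation antigens, *Cd83* (chr13:43784775-43803132, plus strand, ENSMUSG00000015396) had the least spread between libraries. CD83 is a marker of mature dendritic cells and activated macrophages that holds MHC class II and CD86 at the surface. Its libraries without LPS held 31.3 and 30.4 CPM and both DMSO + LPS libraries 116 CPM. With **1**, both 3.2 µM libraries held 107, the 10 µM libraries 74.6 and 68.6, and the 32 µM libraries 44.1 and 45.2 CPM. The conditions with LPS formed a falling series with no overlap. LPS raised it 3.76-fold (95% interval 3.46 to 4.09). Its log2 fold change was -1.38 ± 0.05 (SE) at 32 µM (adjusted p = 4.04e-06, edgeR) and -0.70 ± 0.05 with 10 µM (adjusted p = 6.49e-04), and 32 µM lay below 10 µM by a further -0.68 (adjusted p = 3.54e-04). Between 10 and 3.2 µM the difference was -0.58 (adjusted p = 0.00332), just under the cutoff of 0.585. With 3.2 µM it was -0.12 (unadjusted p = 0.0493, adjusted p = 0.999). In edgeR on the 4 libraries of the 10 µM comparison alone, the adjusted p was 0.05002, just over the threshold (over its alternatives 2.80e-26 to 0.05002).

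*Cd69* (chr6:129267325-129275436, minus strand, ENSMUSG00000030156), an early activation antigen of lymphocytes that myeloid cells also make, was at 1 and 5 counts in DMSO. LPS gave 5.24 and 5.86 CPM, and adding **1** gave 6.73 and 6.17 CPM (3.2 µM), 3.65 and 3.25 CPM (10 µM) and 1.88 and 1.48 CPM (32 µM). The 3.2 µM libraries stood above those of DMSO + LPS, and the others below without overlap. The ratio of LPS to DMSO counts was 106, with a counting interval of 48.5 to 291. It rests on few DMSO counts, and against the first DMSO library alone (1 count) the ratio was 324 (counting interval 58.0 to 12837) and against the second alone (5 counts) 62.6 (26.7 to 194). Its log2 fold change was -1.72 ± 0.25 (SE) at 32 µM (adjusted p = 0.00330, edgeR) and -0.68 at 10 µM, where the 95% interval ran from -1.23 to -0.14 and the adjusted p was 0.268. DESeq2 called it at 10 µM (adjusted p = 0.0443), and over its 14 alternatives the adjusted p ran from 0.00865 to 0.817.

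*Slamf7* (chr1:171632403-171653035, minus strand, ENSMUSG00000038179), a self-binding receptor of the SLAM family, had the largest fall of the 10 at 32 µM. Solvent alone gave 0 and 3 counts and LPS 174 and 134 counts. Adding **1** gave 129 and 141 counts (3.2 µM), 57 and 68 counts (10 µM) and 23 and 12 counts (32 µM). In CPM, the LPS conditions held 3.04 and 2.85, then 2.78 and 2.81, then 1.23 and 1.505, and last 0.470 and 0.265, without overlap. Over the 2 libraries the ratio of LPS to DMSO was 114, with a counting interval of 38.6 to 555. It turned on which DMSO library was used. Against the second alone (3 counts) the ratio was 55.9 (counting interval 19.0 to 273), and against the first, with 0 counts taken at a floor of 3 counts in that library, LPS was at least 57.9-fold higher. At 32 µM the log2 fold change was -2.99 (95% interval -3.98 to -1.99, adjusted p = 0.00342, edgeR). At 10 µM it was -1.11 (95% interval -1.998 to -0.221, adjusted p = 0.269, edgeR), not called, whereas DESeq2 called it (adjusted p = 0.0227). Over its 14 alternatives the adjusted p ran from 0.0166 to 0.814. These counts are low, and 9.24% of the exonic bases overlap an antisense gene (Gm37787).

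Of 8 other SLAM genes, 6 could be tested, and 2 were called higher with LPS (background 14.6%). These were *Slamf8* (log2 fold change 2.79) and *Slamf9* (1.32). *Slamf9* was the only one of the 6 called with **1** (backgrounds of genes called lower 2.91% at 32 µM and 0.579% at 10 µM), lower at 32 µM (-1.55, adjusted p = 8.68e-04, edgeR) and at 10 µM (-1.08, adjusted p = 0.0159). Without the libraries with epithelial counts the 10 µM value was -1.12 and was not called (adjusted p = 0.169). Its counts were 73 and 78 without LPS, 211 and 133 with LPS, 73 and 68 with 10 µM added and 54 and 51 with 32 µM added.

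*Cd52* (chr4:134082448-134095082, minus strand, ENSMUSG00000000682) encodes a very short peptide carried on a lipid anchor, bound by the antibody alemtuzumab in humans. Solvent alone gave 48.7 and 29.6 CPM and LPS gave 197 and 203 CPM. Adding **1** gave 210 and 200 CPM (3.2 µM), 150 and 115 CPM (10 µM) and 83.3 and 55.6 CPM (32 µM). The 3.2 µM libraries overlapped those of DMSO + LPS, and the libraries of DMSO, 10 µM and 32 µM lay far apart within a condition. It rose with LPS (log2 fold change 2.35 ± 0.27, SE, adjusted p = 1.51e-04, edgeR) and fell at 32 µM (-1.53 ± 0.26, adjusted p = 0.00776). At 10 µM the value was -0.60 (95% interval -1.19 to -0.01, adjusted p = 0.406). The 32 µM call was lost without the second DMSO + LPS library (adjusted p = 0.0547) and without the second 32 µM library (log2 fold change -1.27, adjusted p = 0.0516), over its alternatives 9.04e-10 to 0.0547.

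The longest *Cd52* transcript has 514 bases, and its level moved with a score of short transcripts. The score is the median over 358 genes with transcripts under 1000 bases (ribosomal protein genes left out) of the log2 CPM minus its mean over the 10 libraries. It was -0.41 in the second DMSO library and -0.25 in the second 32 µM library, the lower library for *Cd52* in each condition, and 0.28 in the first 10 µM library, the higher one. With this score in the fit, *Cd52* was at -1.44 at 32 µM and at -0.71 at 10 µM (adjusted p = 9.04e-10 and 2.37e-06, edgeR), and called at both. The score was chosen after the data were seen and *Cd52* is itself among its genes, so these p-values are not independent support. Of its exonic bases, 14.5% overlap *Crybg2* on the other strand.

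*Cd44* (chr2:102811141-102901665, minus strand, ENSMUSG00000005087), the receptor for hyaluronan, had the smallest LPS rise of the 10, at 2.62-fold (95% interval 2.46 to 2.79, adjusted p = 4.98e-08, edgeR). Its 2 libraries without LPS held 349 and 356 CPM and the DMSO + LPS libraries 917 and 931 CPM. With **1**, the 3.2 µM libraries held 977 and 968, the 10 µM libraries 865 and 880 and the 32 µM libraries 769 and 795 CPM. Libraries at 3.2 µM stood above those of DMSO + LPS and libraries at 10 and 32 µM below. Its log2 fold change with 32 µM was -0.24 (95% interval -0.33 to -0.15, adjusted p = 0.00544, edgeR), under the fold cutoff. Of 9 genes that make, cut, bind or anchor the partners of CD44, 8 were tested, of which 3 were called higher and 1 lower with LPS (backgrounds 14.6% and 13.6%) and 1 higher and 1 lower at 32 µM (1.27% and 2.91%). LPS raised *Has1* (4.90, a hyaluronan synthase, from 1 and 2 to 53 and 36 counts), *Spp1* (1.16, osteopontin, a CD44 ligand) and *Msn* (0.88, moesin) and lowered the hyaluronidase *Hyal1* (-1.06). At 32 µM *Spp1* was called lower (-1.56), with a mean of 854 CPM, below both DMSO + LPS (2508 CPM) and DMSO (1122 CPM), and ezrin (*Ezr*), which links CD44 to actin, higher (0.77). *Spp1* was also called lower at 10 µM (-0.85), and without the libraries with epithelial counts (-0.86, adjusted p = 0.00941, edgeR).

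The share of the LPS rise left at 32 µM separates the genes. It is the distance of the mean CPM above DMSO as a percent of that in DMSO + LPS. It was 6.39% for *Cd86*, 11.7% for *Slamf7*, 16.2% for *Cd83*, 18.8% for *Cd52*, 29.6% for *Cd69*, 49.2% for *Cd40*, 55.5% for *Cd80*, 63.0% for *Icosl*, 75.2% for *Cd44* and 104% for *Cd274*. For *Cd52* it was 10.2% without the first 32 µM library and 27.4% without the second, so its place ran from beside *Slamf7* to beside *Cd69*. Without the first 32 µM library *Slamf7* was at 8.19% and without the second at 15.2%. *Cd86* stood at one end and *Cd80*, which binds the same receptors, past the middle. Against DMSO, 8 of the 10 were still called higher at 32 µM, against a background of 13.9% of genes called higher. The exceptions were *Cd86* and *Cd83*, and the log2 fold change of *Cd83*, 0.53, lay under the cutoff (adjusted p = 5.94e-05, edgeR).

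**Figure D3:**
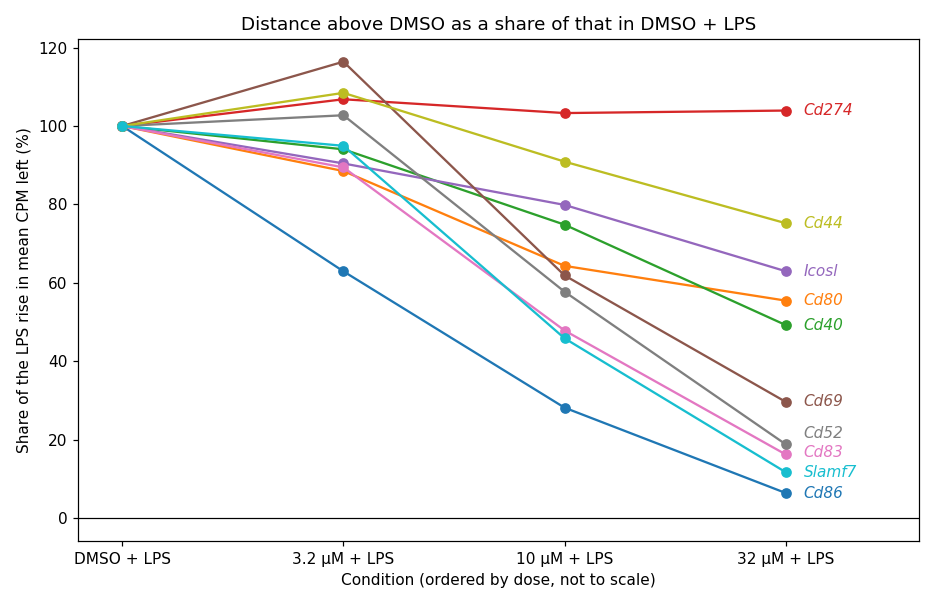
Share of the LPS rise in mean CPM that was left (y axis, percent) in DMSO + LPS and at each dose of **1** with LPS (x axis, in order of dose and not to scale); each point is a mean of 2 libraries and carries no error. At 32 µM the genes spread from 6.39% for *Cd86* to 104% for *Cd274*.

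Without the libraries with epithelial counts, *Cd83* was still called at 10 µM (log2 fold change -0.76, adjusted p = 0.0185, edgeR). *Cd80* then stood at -0.37 and no longer had an adjusted p below the threshold (0.270). *Cd69* stood at -0.77 and *Slamf7* at -0.97, neither called by edgeR, and the DESeq2 calls of both were lost (adjusted p = 0.521 and 0.778). The others not called at 10 µM were not called by either tool without these libraries, with edgeR values of -0.81 for *Cd52*, -0.21 for *Icosl*, -0.07 for *Cd44* and 0.06 for *Cd274*. At 3.2 µM none was called by either tool without them (1 had an unadjusted p below 0.05), and the values ran from -0.54 for *Cd86* to 0.15 for *Cd69*.

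From dose to dose, 5 of the 10 (*Cd86*, *Cd40*, *Icosl*, *Cd83* and *Slamf7*) stood lower at each step from DMSO + LPS through 3.2 and 10 to 32 µM, without any overlap between libraries, against a background of 2.58% of the genes tested. Without the libraries with epithelial counts *Cd80* joined them, for 6 of 10 against 4.76%. Between 32 and 10 µM, *Cd40* (-0.60, adjusted p = 0.0152, edgeR) and *Cd83* were called lower, against a background of 1.15%. That count was 1 without the libraries with epithelial counts, without either 32 µM library or without the first 10 µM library, and 4 without either DMSO library. Between 10 and 3.2 µM none was called by edgeR, against 0.183% of genes called lower, although 8 had an unadjusted p below 0.05 and DESeq2 called 1. Without the second DMSO library or the first 10 µM library edgeR called 1.

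Levels between genes are compared per kb of the union of a gene's exons. In DMSO + LPS, *Cd52* led with 169 ± 3.40 CPM per kb (SD, n = 2), followed by *Cd44* (136 ± 1.40), *Cd83* (45.1 ± 0.0556), *Cd40* (42.8 ± 0.945), *Cd274* (40.9 ± 1.30), *Cd80* (17.8 ± 0.135), *Icosl* (6.58 ± 0.338), *Cd86* (1.24 ± 0.105), *Cd69* (0.852 ± 0.0670) and *Slamf7* (0.644 ± 0.0286). *Cd40* and *Cd274* lay within their spreads of each other. The highest was 262-fold above the lowest. In DMSO the order was led by *Cd44* (52.0 ± 0.763) and *Cd52* (33.0 ± 11.4), while *Cd40* stood at 0.274 ± 0.00749 and *Cd86* at 0.262 ± 0.0101, within their spreads of each other, as were *Cd274* (1.52 ± 0.0329) and *Icosl* (1.45 ± 0.102). At 32 µM *Cd44* led again (115 ± 2.75), ahead of *Cd52* (58.5 ± 16.5) and *Cd274* (42.5 ± 0.448), which lay within the spread of *Cd52* and above *Cd40* (21.2 ± 1.38) and *Cd83* (17.4 ± 0.312). The order depends on the length used. Per kb of the longest transcript, a choice made after seeing the data, *Cd52* led *Cd44* in DMSO (76.1 ± 26.2 and 62.8 ± 0.921 CPM per kb), though within its spread, and at 32 µM *Cd44* led *Cd52* within its spread (139 ± 3.32 and 135 ± 38.1). *Cd40* then stood above *Cd83* in DMSO + LPS (48.9 ± 1.08 and 46.9 ± 0.0577), *Icosl* above *Cd274* in DMSO (2.37 ± 0.168 and 1.52 ± 0.0329) and *Cd86* above *Cd40* in DMSO (0.378 ± 0.0146 and 0.313 ± 0.00854), and the range in DMSO + LPS was 526-fold.

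**Figure D4:**
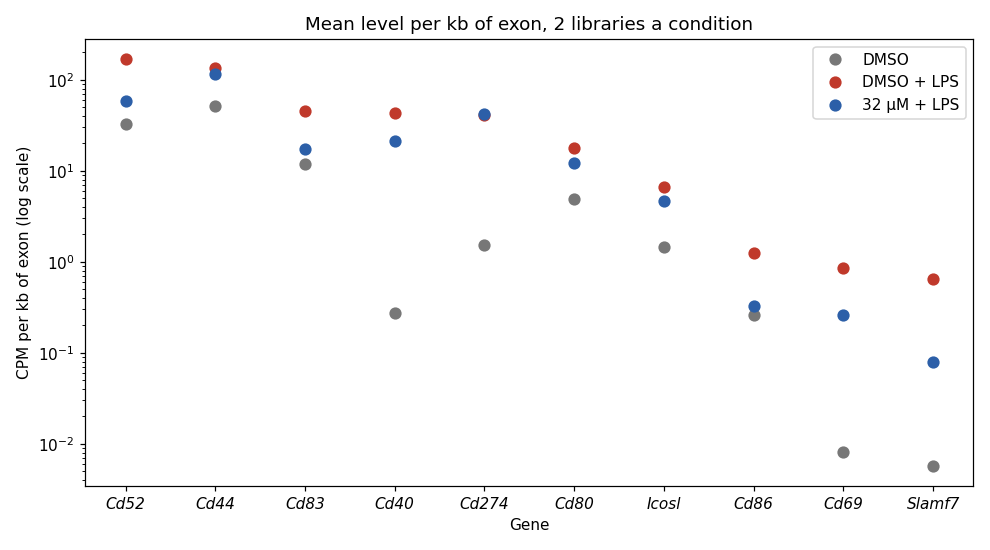
Mean CPM per kb of exon (y axis, log scale) of each gene in DMSO, DMSO + LPS and at 32 µM with LPS (x axis, genes ordered by DMSO + LPS); points are means of 2 libraries. The range in DMSO + LPS is 262-fold, and *Cd274* at 32 µM lies on its DMSO + LPS level.

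Other ligands and receptors that meet the T cell were examined by fixed lists. Of 12 nectins and checkpoint molecules, 9 were tested, with 4 called higher with LPS and 3 lower (backgrounds 14.6% and 13.6%). At 32 µM 1 was called higher and 1 lower (backgrounds 1.27% and 2.91%), and at 10 and 3.2 µM none by edgeR or DESeq2 (7 and 2 had an unadjusted p below 0.05, with or without the libraries with epithelial counts). *Lgals9* (galectin-9, a ligand of TIM-3) rose with LPS (log2 fold change 1.75) and fell at 32 µM (-1.24). *Havcr2*, which encodes TIM-3, was called higher at 32 µM (0.78), with 110 ± 5.66 CPM (SD, n = 2) in DMSO + LPS and 189 ± 3.37 at 32 µM. The poliovirus receptor *Pvr* (1.48) and *Cd47* (1.40) rose with LPS and were not called with **1**, although 32 µM gave them 0.50 and -0.54 (adjusted p = 3.06e-04 and 2.43e-04, edgeR), under the fold cutoff. Of the 9 tested, 7 had an adjusted p below 0.05 at 32 µM (edgeR), where 1386 of the 14172 genes tested did. At 10 µM 5 of the 9 did, with 378 of all genes tested, counted with all 10 libraries. Of 6 costimulatory ligands of the TNF superfamily, 3 were tested and none was called by edgeR or DESeq2 with LPS or at any dose. *Tnfsf9* (4-1BB ligand) had a log2 fold change of 0.57 with LPS, just under the cutoff of 0.585 (adjusted p = 2.78e-04, edgeR), and DESeq2 called 1 of the 3 with LPS without the libraries with epithelial counts. There was an unadjusted p below 0.05 for 1 with LPS and for 0, 1 and 0 at 32, 10 and 3.2 µM (0 at 10 and 3.2 µM without the libraries with epithelial counts, where neither tool called any). Of 11 genes for the turnover of CD86, PD-L1 and MHC class II at the surface, 9 were tested. The 1 call by edgeR was *Cmtm4*, lower with LPS (-0.66), where 13.6% of the genes tested were called lower. At 32 µM none of the 9 was called by edgeR or DESeq2 (2 had an unadjusted p below 0.05), and at 10 µM edgeR called none and DESeq2 1, *H2-Aa* (3 had an unadjusted p below 0.05). DMSO + LPS gave 0 counts of *H2-Aa*, an MHC class II chain, in either library and 10 µM gave 86 and 3, so that at this dose nearly all of its counts were in the first library, the one with the most epithelial counts, as were those of *H2-Ab1* (96 and 7) and *H2-Eb1* (72 and 0). The first 3.2 µM library, which also held epithelial counts, had 28, 41 and 12 counts of these 3 genes and the second 3, 5 and 1. Without the libraries with epithelial counts 7 of the list could be tested, and neither tool called any at 10 or 3.2 µM (1 and 0 had an unadjusted p below 0.05). *Cmtm6*, which keeps PD-L1 at the surface, was at 97.0 ± 2.07 CPM in DMSO + LPS and 92.7 ± 2.09 at 32 µM.

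The genes whose log2 CPM followed each falling gene most closely over the 10 libraries were picked from 9562 genes with a mean of at least 5 CPM. Pearson's r is a description here, since the libraries share the 5 conditions. *Cd86* was closest to *Carhsp1* (0.990), *Ghitm* (0.986) and *Asph* (0.986). *Cd40* was closest to *Zfp36*, *Nfkbia* and *Slc31a2* (at least 0.999). *Cd83* went with *Tmem106a* (0.997), *Nmi* (0.996) and *Tap1* (0.995), *Cd69* with *Gstt4* (0.995), *Hcar2* (0.995) and *Fam49a* (0.994), *Cd52* with *Vasp* (0.991), *Tap2* (0.990) and *Nub1* (0.990), and *Slamf7* with *Samd9l* (0.988), *Apol9b* (0.988) and *Casp8* (0.987).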

How the data were processed

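Poly(A) RNA libraries were made with a directional kit and sequenced together. For each library the authors deposited unnormalized read counts by Ensembl gene. The submitters' processing notes name Trimmomatic, FastQC, STAR, DESeq2 and mm10, and the counting tool and its use of strand are not given in the sources used here. Symbols, positions and exon lengths came from GENCODE M21 (GRCm38).

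Genes passing filterByExpr (minimum count 10) were scaled by TMM and tested in 1 edgeR quasi-likelihood fit of the 10 libraries, with 1 mean per condition (5 residual degrees of freedom, common biological coefficient of variation 0.128). Intervals are 95%, adjusted p is Benjamini-Hochberg over the 14172 genes, and counting intervals cover counting error only. DESeq2 1.42.0, edgeR 4.0.16, limma 3.58.1 and R 4.3.3 were used, and the steps were tested on simulated data. The genes and lists were chosen with earlier results of these data known. From each list, at most the 4 largest called changes are named, besides those a small count refers to. For each gene called at 32 µM, the 3 most correlated genes are named. *Cmtm6*, *Vsir*, *Cd40lg*, *Pdcd1lg2*, *Vtcn1*, *Tnfsf9*, *H2-Aa*, *H2-Ab1*, *H2-Eb1* and the macrophage markers not called were named after their values were seen.

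Alternatives were DESeq2 size factors, library size alone, no filter, a 5 CPM minimum of the mean, the replicate number as a block, DESeq2's Wald test, edgeR on the 4 libraries compared, adjusted p alone, a 2-fold cutoff and leaving out each library. Chosen after seeing the data were the short-transcript score in the fit and leaving out the libraries with epithelial counts.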

Additional observations from a re-analysis of the deposited data

How the results depend on the processing

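Of the recomputed log2 fold changes of the 10 genes, with LPS and at the 3 doses against DMSO + LPS, 567 kept their direction and their side of the threshold, 11 gained a call, 7 lost one and 3 reversed. The reversals were all of *Cd52* at 3.2 µM, from 0.03 to -0.16 with the short-transcript score, and -0.0018 without the libraries with epithelial counts; leaving out each library gave -0.0015 to 0.0640, the lowest without the first 3.2 µM library. None of these was called. At 32 µM the count of 6 lay between 5 and 9, except that a mean of at least 5 CPM left 3, since it takes *Cd86*, *Cd69* and *Slamf7* out of the test. At 10 µM against DMSO + LPS the count of 2 became 1 with that filter, a 2-fold cutoff or without the libraries with epithelial counts, 3 by adjusted p alone, 4 with DESeq2 (adding *Cd69* and *Slamf7*), 5 with the short-transcript score and 0 in edgeR on 4 libraries, with 1 to 2 on leaving out each library. For 32 against 10 µM the count of 2 became 5 without a filter or with the short-transcript score, 4 with DESeq2, 1 without the libraries with epithelial counts, and 0 on 4 libraries or at 2-fold, with 1 to 4 on leaving out each library. For 10 against 3.2 µM the count of 0 became 1 without a filter, with DESeq2 or by adjusted p alone, and 3 with the score, with 0 to 1 on leaving out each library. Over all genes tested the calls were 3995 with LPS (2426 to 7220 over the alternatives), 592 at 32 µM (317 to 1386), 122 at 10 µM (36 to 378), 0 at 3.2 µM (0 to 66), 187 for 32 against 10 µM (5 to 391), 36 for 10 against 3.2 µM (0 to 128) and 3847 for 32 µM against DMSO (2245 to 7208), with the extremes at a 2-fold cutoff, by adjusted p alone or on 4 libraries. Scaling by library size alone moved the median of all genes by -0.21 for LPS and -0.20 for 32 µM, both against DMSO. Same-numbered libraries deviated together in the 6 pairs of conditions without DMSO + LPS (r of their deviations 0.27 to 0.82) and in opposite directions in the 4 pairs with it (-0.41 to -0.16), so the numbers were not taken to pair the libraries. With the replicate block, 10, 6, 2, 0, 3, 0 and 8 of the 10 genes were called in the comparisons in the order above. Causes other than fewer genes or libraries were not tested.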
